A study of Nothobranchius furzeri with 3 samples.

Results

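mir-202 and mir-430 are a pair of fish microRNAs (miRNAs) best known from the gonad and the early embryo, and their reads were examined here in adult skin of the turquoise killifish, Nothobranchius furzeri, a fish of seasonal pools used in research on ageing. They were chosen by name, as the features nfu-mir-202 and nfu-mir-430, 2 of the 324 features of a table of small RNA read counts. All 3 libraries came from skin of male fish, strain MZM-04/10p, aged 39 weeks, and they are called libraries 1, 2 and 3 in accession order. They form 1 group, so the values describe this tissue and its spread between libraries, and no condition was compared. Each title has its own code, yet nothing in the labels says that the libraries are from separate fish, so part of the spread between them may be technical.

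miRNAs are short RNAs that guide Argonaute proteins to partly matching messenger RNAs and lower their translation and stability, mainly through the seed at their 5′ end. miR-202 is known from the gonads of vertebrates: in mouse it is made in Sertoli cells of the testis, and in medaka its loss reduces the number of eggs. miR-430 is the miRNA that in zebrafish is made in large amounts at the onset of zygotic transcription, where it clears maternal messenger RNAs and represses germ cell transcripts in somatic cells. Its genes lie in many copies in zebrafish, and its seed is related to those of miR-302 in mammals and of the miR-17 family. The human miR-202 3p arm shares most of its seed with let-7. The features here carry no 5p or 3p arm in their names, so each value covers whatever sequences were counted under that name.

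The library totals over all features were 5021238, 8545292 and 9590428 counts in libraries 1, 2 and 3. At least 1 count in every library was found for 200 features (61.7% of all), mir-202 and mir-430 among them, and 58 features had 0 counts throughout. The tissue label was checked with epidermal miRNAs: mir-205, enriched in stratified epithelium, had 287034, 552862 and 739299 counts. mir-203, a regulator of keratinocyte differentiation, had 13623, 23964 and 49544 counts. mir-8, the fly name of the miR-200 family, had 16052, 33366 and 48672. The feature named mir-200 was at 0 in all libraries. The 3 counts taken here as a fixed limit for a 0 equal 0.597, 0.351 and 0.313 counts per 1000000 (CPM). By mean CPM, mir-205 was at 66316, above mir-133 of striated muscle at 14666. mir-203 at 3561 and mir-8 at 4059 were close to mir-192 of gut and liver at 3668. The check thus rested mainly on mir-205. No library was close to a copy of another, since 107 to 126 of the 165 to 175 features tested in each pair of libraries differed beyond counting error, with the TMM factors of all 3 libraries. The spread between libraries beyond counting error, as edgeR's common biological coefficient of variation, was 0.466.

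mir-202 was read in every skin library, but almost all of its reads came from library 2. It had 86, 2758 and 30 counts in libraries 1, 2 and 3. As a share of the library these were 17.1 CPM (95% exact binomial interval 13.7 to 21.2), 323 CPM (311 to 335) and 3.13 CPM (2.11 to 4.47). No interval overlapped another. By a different measure, an adjusted test for any difference between the 3 libraries, 136 of 178 features tested differed beyond counting error (76.4%). How many features had 3 intervals apart was not counted. The intervals of mir-202 cover counting error only, since reads without molecular identifiers can include PCR copies. In a bulk tissue, fewer cells that make a miRNA and less of it per cell cannot be told apart.

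**Figure D1:**
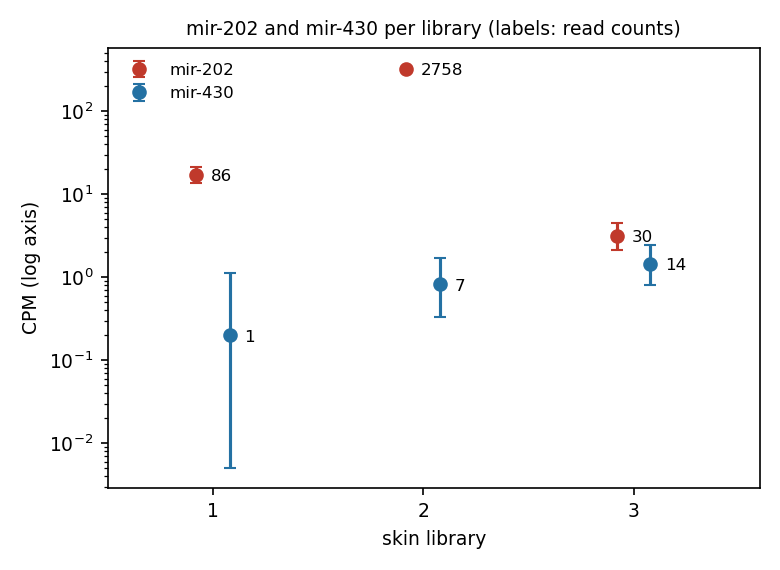
CPM of mir-202 and mir-430 (log axis) in each of the 3 skin libraries, with 95% exact binomial intervals as bars and read counts beside the points. mir-202 lies at 17.1, 323 and 3.13 CPM, while the intervals of mir-430 overlap between all libraries.

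Library 2 held 96.0% of the 2874 counts of mir-202 but 36.9% of all counts in the table. In that library 1 in 3098 counts was mir-202, against 1 in 58386 in library 1 and 1 in 319681 in library 3. The mean was 114 ± 181 CPM (SD, n = 3), with an SD above the mean, and the median was 17.1 CPM. Without library 2 the mean was 10.1 CPM, so the mean stands for no library in particular.

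The order of abundance moved in the same way. mir-202 was 62nd of the 324 features in library 2, where it lay above 176 of the other features with a count. Its rank was 108 in library 1 and 142 in library 3. By mean CPM it ranked 78, and by median CPM 109.

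The ratios between libraries were computed after TMM scaling in edgeR (the trimmed mean of M-values), which corrects for a few abundant features taking up a different part of each library. On this scale mir-202 had 18.2, 326 and 2.91 CPM. Library 2 exceeded library 1 17.9-fold (95% exact counting interval 14.4 to 22.4) and library 3 112-fold (78.1 to 166). Even apart from library 2, library 1 exceeded library 3 6.25-fold (4.08 to 9.82). None of these 3 counting intervals reached 1. As the unevenness of mir-202 was a reason for describing it, this is a description and not a test. By a test adjusted for the number of features, a difference beyond counting error was found for 109 of 165 features between libraries 1 and 2. Between libraries 1 and 3 it was found for 107 of 167, and between libraries 2 and 3 for 126 of 175. How many features differed in every pair was not counted.

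A difference beyond counting error was common in these libraries: it was found for 136 of the 178 features with a total of at least 15 counts (76.4%), by exact multinomial or chi-square test with Benjamini-Hochberg adjustment. The unevenness of mir-202 was a reason for describing it, so no p-value is given for it, and its size is set beside that of the other features. For the 115 features that averaged 100 counts or more, the highest library exceeded the lowest by a median of 1.92-fold, and this ratio reached 10 in 3 of them (2.61%). These were mir-202 at 112, the feature named mir-716 at 14.97, with 1318, 35423 and 9723 counts, and pred_770, which carries only a prediction number, at 10.1, with 166, 2996 and 1332 counts. All 3 were highest in library 2, as were 48 of the 115 features (41.7%). Below that abundance, mir-802, singled out after its values were seen, had 53, 7 and 170 counts and a ratio of 20.0, and it was highest in library 3 and lowest in library 2. The feature-wise coefficient of variation from edgeR was 1.18 for mir-202, the highest of the 178 features.

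**Figure D2:**
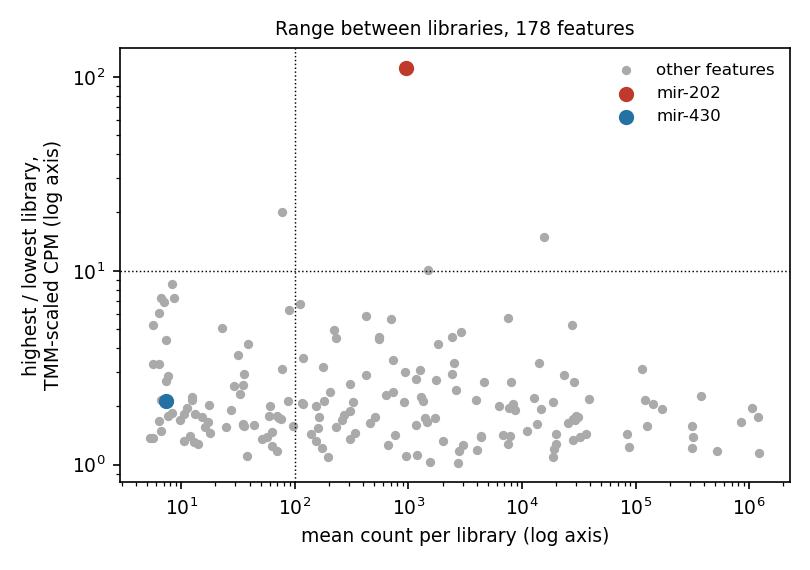
Highest library divided by the lowest (TMM-scaled CPM, log axis) against the mean count per library (log axis) for 178 features with a total of at least 15 counts, with counts under 3 set to 3. Dotted lines mark a ratio of 10 and a mean count of 100, and mir-202 lies at 112, where the next feature with at least that mean count lies at 14.97.

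The features next to mir-202 by mean CPM did not have such a range. That mean was carried by library 2, and mir-202 itself had 17.1 CPM in library 1 and 3.13 CPM in library 3. These neighbours were therefore not of like abundance in those libraries. The 5 above it and the 5 below it by mean CPM lay between 87.4 and 152 CPM, and their ratios of highest to lowest library ran between 1.11 and 5.63, with a median of 2.58. Directly above stood mir-499, a miRNA of striated muscle encoded in a myosin gene, with 588, 476 and 1745 counts. Directly below stood the feature named mir-821, with 356, 1345 and 1056. The steadiest neighbour was mir-883, at 113, 120 and 126 TMM-scaled CPM, and the least steady was mir-194, a miRNA of gut and liver, at 89.2, 25.4 and 143. mir-194 was lowest in library 2, where mir-202 was highest.

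**Figure D3:**
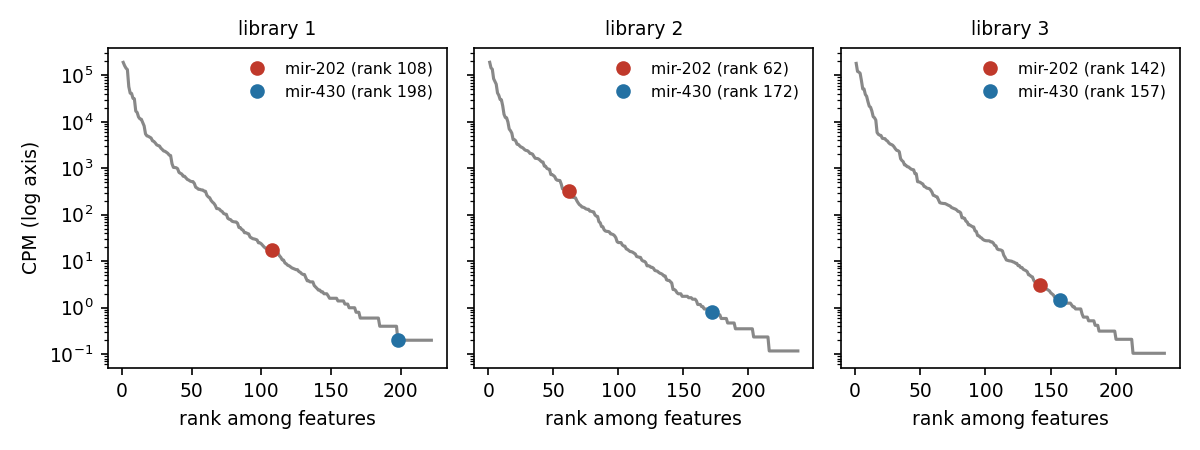
CPM (log axis) of all features with a count against their rank, 1 panel for each library, with mir-202 and mir-430 marked. mir-202 stands at ranks 108, 62 and 142, and mir-430 in the tail of single counts in library 1 and at ranks 172 and 157 in libraries 2 and 3.

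Set against the epidermal mir-205 of the same library, mir-202 again had 3 intervals that did not overlap. Set against some other miRNAs its range was narrower. Per 1000000 counts of mir-205 there were 300 counts of mir-202 in library 1 (95% exact interval 239.6 to 370.04), 4989 in library 2 (4804 to 5179) and 40.6 in library 3 (27.4 to 57.9). mir-205 itself varied 1.18-fold between the highest and the lowest library. Set against let-7, a regulator of developmental timing that was also highest in library 2, there were 548 (438 to 677), 4382 (4220 to 4549) and 88.5 (59.7 to 126) counts of mir-202 per 1000000. The ratio between libraries 2 and 3 was thus 49.5-fold against let-7 and 123-fold against mir-205. let-7 was chosen with its values seen and was itself higher in library 2 than in library 3, so the smaller fold follows from that.

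By Euclidean distance over the libraries, no feature with a total of at least 15 counts lay close to mir-202. This distance grows with the size of a feature's range, so the range of mir-202 set it far from all features in advance. Likeness of shape alone was not measured. Likeness was measured as the Euclidean distance between log2(TMM-scaled CPM + 1) values over the 3 libraries, each feature centred on its own mean. A flat feature would lie at 4.57 from mir-202, and the 5 nearest lay at 2.86 to 3.48. They were mir-451, which is specific to the red blood cell lineage, pred_484, mir-716, mir-299 and mir-676. mir-451 had 830, 1814 and 317 TMM-scaled CPM and so kept the same order of libraries as mir-202, over a range of 5.72-fold. pred_484 had 247.5, 555 and 166 and kept that order too, while mir-299 was highest in library 1 and mir-716 and mir-676 were lowest there. On the centred log2 scale pred_484 lay at -0.196, 0.967 and -0.771, against -0.597, 3.49 and -2.89 for mir-202. It thus moved in the same directions over a smaller range.

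Some blood-linked miRNAs, but not all, also set library 2 apart, as did the lists for striated muscle and for gut and liver. Highest values in library 2 were common: 48 of the 115 features that averaged 100 counts or more (41.7%) had theirs there. The erythroid list, mir-451 and mir-144, summed to 1205, 2277 and 474 TMM-scaled CPM. Most of this sum was mir-451, the feature nearest to mir-202 in pattern, and mir-144 alone had 375, 464 and 157. Per 1000 counts of mir-451 there were 22.0, 179.5 and 9.20 counts of mir-202, a ratio that was 8.17-fold higher in library 2 than in library 1 and 19.5-fold higher than in library 3. Both folds were smaller than the TMM-scaled 17.9 and 112 of mir-202. This follows from the choice of mir-451 by pattern, since mir-451 was itself highest in library 2 and lowest in library 3. Per 1000 counts of mir-716 there were 65.3 (51.8 to 81.2), 77.9 (74.9 to 80.9) and 3.09 (2.08 to 4.41), so that libraries 1 and 2 had overlapping intervals and library 3 stood apart. mir-716 itself had 279, 4182 and 945 TMM-scaled CPM and was chosen with these seen. The narrower gap between libraries 1 and 2 follows from that choice. Among leukocyte miRNAs, mir-223, known from granulocytes, had 363, 973 and 370 TMM-scaled CPM. mir-142, found across blood cells, had 1330, 2416 and 1090, while mir-146, which dampens inflammatory signalling, was lowest in library 2, at 3287, 1567 and 2696. mir-155, at 77.3, 92.4 and 110, and mir-150, at 9.75, 12.3 and 20.0, were highest in library 3. Over all 5 leukocyte features the sum was 5068, 5062 and 4287.

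The 3 striated muscle features, led by mir-133, summed to 17396, 6731 and 20812 TMM-scaled CPM. The 4 gut and liver features, led by mir-192, summed to 5221, 1012 and 5216. Both sums were lowest in library 2, and the share of all features lowest there was not counted. The sum of the epidermis list, with mir-200 at 0, was 67109, 72038 and 81358, with library 2 between the others. The part of these differences in the level of mir-202 was not tested.

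No other gonad and germline feature had its highest value in library 2, though mir-430 and mir-449 had few counts. Of 26 miRNA numbers listed for gonad, germ cells or embryonic stem cells in fish or mammals, 6 matched a feature and the other 20 were not analysed here. Besides mir-202 and mir-430 these were mir-34 and mir-449, made in male germ cells and ciliated epithelia of mammals, and mir-471 and mir-883, whose names belong to testis miRNAs of the mouse X chromosome. Whether the killifish features with the mouse names correspond to those miRNAs was not tested. Without mir-202 and mir-430 the other 4 summed to 149 TMM-scaled CPM in library 1, 149 in library 2 and 194 in library 3.

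mir-883 took most of that sum, with 535, 1016 and 1298 counts and a ratio of highest to lowest library of 1.11. mir-34 had 110, 138 and 166 counts, or 23.3, 16.3 and 16.1 TMM-scaled CPM, and was not raised in library 2. mir-471 had 54, 106 and 531 counts and was highest in library 3, at 51.6 TMM-scaled CPM against 11.4 and 12.5. mir-449 had 3, 3 and 5 counts. For each count of mir-34 there were 0.782 counts of mir-202 in library 1 (95% exact interval 0.583 to 1.05), 20.0 in library 2 (16.8 to 23.9) and 0.181 in library 3 (0.118 to 0.268). mir-202 was thus the one feature of the 6 whose highest value was in library 2. mir-449 and mir-430 had too few counts to settle which library was highest. Of the 115 features that averaged 100 counts or more, 48 (41.7%) were highest in library 2.

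**Figure D4:**
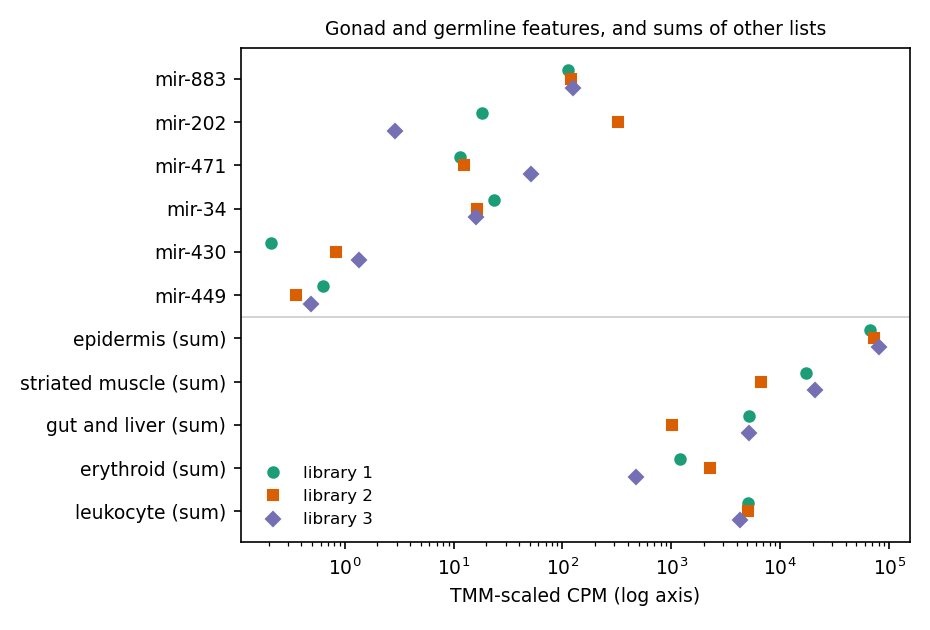
TMM-scaled CPM (log axis) in libraries 1, 2 and 3 for the 6 gonad and germline features, above the line, and for the sums of 5 lists of other cell types or tissues, below it. mir-202 spreads between 2.91 and 326, while mir-883 and mir-34 differ less than 2-fold between libraries.

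mir-430 was near the limit of detection in all libraries. It had 1, 7 and 14 counts in libraries 1, 2 and 3, or 0.199 CPM (95% exact binomial interval 0.00504 to 1.11), 0.819 CPM (0.329 to 1.69) and 1.46 CPM (0.798 to 2.45). All intervals overlapped. The mean was 0.826 ± 0.630 CPM (SD, n = 3), and without library 3 it was 0.509 CPM. Over the pooled libraries, 22 counts gave 0.950 CPM (0.595 to 1.44).

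mir-430 ranked 171 of 324 by mean CPM. In library 1 it shared its single count with 24 other features, and no detected feature had fewer. It ranked 172 in library 2 and 157 in library 3. Over all libraries 99 features had at least 1 count but fewer than mir-430.

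The uneven counts of mir-430 could not be separated from counting error after TMM scaling. Library 3 exceeded library 1 6.42-fold with a 95% exact counting interval of 0.977 to 271, and library 2 exceeded library 1 3.90-fold (0.501 to 176). Library 3 exceeded library 2 1.65-fold (0.622 to 4.82). With library totals in place of TMM, the ratio of library 3 to library 1 was 7.33, and its interval of 1.12 to 310 no longer reached 1. A difference as large as that of mir-202 between libraries 2 and 3 would also have fitted within the first of these intervals, so the depth here does not show mir-430 to be even. The feature-wise coefficient of variation from edgeR, 0.482, ranked 51 of 178 and lay close to the common value of 0.466. edgeR moderates such values with those of other features, so with so few counts it says little about mir-430 alone.

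The neighbours of mir-430 in abundance had similar small counts. The 5 above and the 5 below it lay between 0.694 and 0.951 CPM, with ratios of highest to lowest library, counts under 3 set to 3, of 1.49 to 6.89 and a median of 3.84. On the same basis, with its single count in library 1 set to 3, mir-430 had a ratio of 2.14. pred_351, with 3, 17 and 1 counts, and mir-786, with 1, 7 and 11, were among them. mir-624, with 7, 5 and 1 counts, had the opposite order of libraries to that of mir-430, at nearly the same mean level.

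By pattern, mir-430 was closest to mir-1388, mir-7132, mir-786, mir-454 and mir-150, at distances of 0.104 to 0.236, where a flat feature would lie at 0.686. With a value of 1 CPM added before the logarithm, a feature as rare as mir-430 looks almost flat, so small distances are built into this measure. mir-1388 had 2374, 5982 and 10373 counts. mir-150, known from lymphocytes, had 46, 104 and 206. Both were lowest in library 1 and highest in library 3, as mir-430 was, and this follows from their choice by pattern. Library 1 was the lowest for 39.3% of the 178 features and library 3 the highest for 35.4%.

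**Figure D5:**
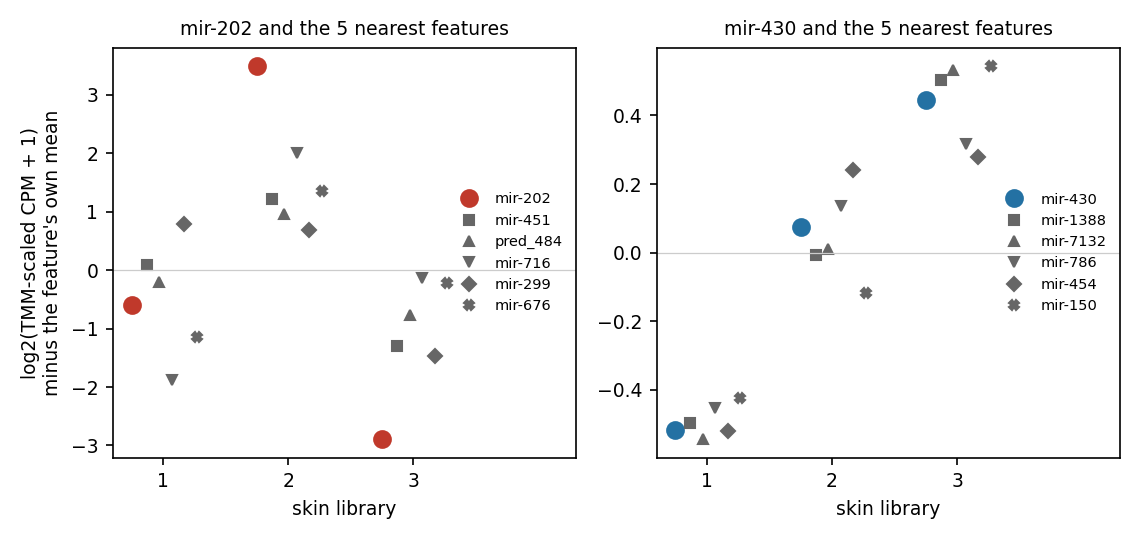
Levels of mir-202 (left) and mir-430 (right) in each library with those of the 5 features nearest in pattern, as log2(TMM-scaled CPM + 1) minus the feature's own mean. mir-202 reaches 3.49 in library 2 and -2.89 in library 3, beyond all 5, while the features of the right panel lie within 1 log2 unit of their means.

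Of 12 miRNA numbers listed as seed relatives of mir-430, 1 matched a feature, mir-17, a miRNA of a cluster linked to proliferation, with 3391, 12440 and 9006 counts. Per 1000000 counts of mir-17 there were 295 counts of mir-430 in library 1 (95% exact interval 7.46 to 1644), 563 in library 2 (226 to 1160) and 1555 in library 3 (850 to 2610). The interval of library 1 held the values of both other libraries and overlapped their intervals. mir-17 was highest in library 2, at 1469 TMM-scaled CPM against 718.5 and 875, and mir-430 in library 3.

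The ratio of mir-202 to mir-430 was lowest in library 3, while the intervals of libraries 1 and 2 overlapped. The uneven level of mir-202 enters this ratio directly. For each count of mir-430 there were 86 counts of mir-202 in library 1 (95% exact interval 15.03 to 3436), 394 in library 2 (191 to 981) and 2.14 in library 3 (1.10 to 4.37). mir-202 exceeded mir-430 in all 3 libraries, but in library 3 both were rare, with 30 and 14 counts. Library 3, which was the deepest, had the lowest level of mir-202 and the most counts of mir-430. Small RNA ligation favours some sequences, so a ratio of mir-202 to another miRNA within a library is not a ratio of molecules.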

How the data were processed

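Small RNA from skin of 3 samples was sequenced; per the labels' protocols, libraries were made from total RNA with Illumina's TruSeq kit for small RNA. The deposited table holds raw read counts per miRNA feature, in whole numbers and without normalization, 1 column per library. BWA 0.7.12-r1039, SAMtools 1.3.1-9, Trimmomatic 0.36 and bcl2fastq 1.8.4 are named, without roles, in the submitters' processing notes. Not given in the sources used here are the genome build, the miRNA annotation and the handling of reads that match several places. The last could change mir-430 in particular, if its genes are as many as in zebrafish. Coordinates are not printed, as 0 feature names were found in the RefSeq gene table.

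CPM are counts divided by the library's total, and shares and ratios carry exact (Clopper-Pearson) 95% intervals, which cover counting error only. For a count of 0 a fixed limit of 3 counts was used in place of a Clopper-Pearson limit. TMM factors were 0.940, 0.991 and 1.07. Features with a total of at least 15 counts were tested for differences between libraries, with the exact multinomial test up to a total of 300 counts and the chi-square test above, at an adjusted p under 0.05. This compares libraries, not conditions. Named features were the members, their 5 neighbours above and below by mean CPM, the 5 nearest in pattern and those of the lists. mir-716, pred_770, mir-802 and ratios to let-7 were chosen after their values were seen. The members, lists and tests were chosen with earlier results of these data known.

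On simulated data for the 178 features, the estimate was 0.303 for a simulated coefficient of variation of 0.3, and 0.504 for 0.5. Alternatives were other scalings, count filters, DESeq2 dispersions and each library left out. Tools were R 4.3.3, edgeR 4.0.16, DESeq2 1.42.0, Python 3.11.15, numpy 2.4.6, scipy 1.17.1, pandas 2.3.3 and matplotlib 3.10.9.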

Additional observations from a re-analysis of the deposited data

How the results depend on the processing

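No paired analysis was possible because there is only 1 group. With each library left out, the ratio of highest to lowest library ranged between 6.25 (without library 2) and 112 for mir-202, with 16.6 without library 3, and between 1.65 (without library 1) and 6.42 for mir-430. The mean CPM ranged between 10.1 and 170 for mir-202 and between 0.509 and 1.14 for mir-430, and the ranks between 71 and 118 and between 162 and 183. Features with a ratio of at least 10 numbered 0 without library 2, 1 without library 1 and 2 without library 3. Against 3 with all libraries, they numbered 2 with DESeq2 size factors (1.74% of 115 features), 4 where the mean count had to reach 10, mir-802 being the added one, and 2 where it had to reach 1000, which mir-202 at 958 does not. Other scalings gave ratios of 103 to 113 for mir-202 and 6.11 to 7.33 for mir-430. Features differing beyond counting error numbered 104 to 141 over all alternatives, with 104 for libraries 1 and 2 alone under TMM factors of that pair and 109 under those of all libraries, and the common coefficient of variation was 0.377 (without library 2) to 0.488. Levels of mir-430 are limited by its few counts.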
